A study of Rattus norvegicus with 54 samples.

Results

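The age comparison in control females set the nucleus accumbens of adult rats against that of adolescent rats, in 15 of the series' 54 bulk RNA libraries. The nucleus accumbens is the ventral part of the striatum that links reward to action. The 15 libraries were chosen by their titles alone: 8 of adult females at postnatal day 90 (P90) and 7 of adolescent females at postnatal day 42 (P42). All came from Long Evans rats, an outbred strain, of the prenatal condition free-choice liquid diet (FCL), which the study sets beside prenatal ethanol (PAE), and of the water control (VEH) of its adolescent alcohol exposure (AAE). The P42 brains were taken 24 h after the final adolescent exposure and the P90 brains in adulthood, unchallenged, so that age and the time since that exposure cannot be told apart. Values of the same genes are given from control males (6 adult and 9 P42 libraries, also FCL and VEH) and from ethanol-exposed females. The comparison of exposed females set 5 adult libraries with prenatal ethanol and adolescent alcohol (PAE_AAE) against 4 P42 libraries with prenatal ethanol and water (PAE_VEH), so adolescent alcohol and age cannot be told apart there. The labels do not say that each library is a separate animal or comes from a separate litter. The p-values then measure only the spread between these libraries.

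Between these ages rats pass from adolescence to adulthood, and oligodendrocytes are still being added to the forebrain. Oligodendrocyte precursors become newly forming cells, which wrap axons and then build compact myelin, a membrane rich in cholesterol and in galactolipids. Myelin takes its cholesterol from synthesis within the brain, since circulating cholesterol does not cross the blood-brain barrier. Proteoglycan nets and other matrix around neurons are also remodelled during adolescence.

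Depth of the 15 libraries lay between 59.1 and 94.4 M counts. Levels below are CPM, a gene's counts per 1000000 counts of its library, with library sizes scaled by the trimmed mean of M values (TMM), and a bracketed value after a gene is its log2 fold change, adult over P42. Medium spiny neuron markers, which define this tissue, were high at both ages: Ppp1r1b, the phosphatase regulator DARPP-32, averaged 1292 ± 489 CPM in adult females and 1386 ± 251 CPM in P42 females (SD, n = 8 and n = 7). The library labelled P42 female replicate 5 went against its label, with Xist, which coats and silences the inactive X, at 0.761 CPM and the Y-linked Kdm5d at 43.97 CPM. In the other 6 P42 libraries Xist was at least 649.6 CPM and Kdm5d at most 0.103 CPM. Adult replicate 1 lay farthest out on the first principal component (30.7% of the variance), where the other 14 libraries lay between -61.8 and 46.2. It also held the lowest sum of medium spiny neuron markers, 4848 CPM, where the P42 libraries held at least 8381 CPM. Both libraries were kept, and results without them follow. Markers of neighbouring tissue also varied between libraries. Summed cortical excitatory neuron markers ran from 609 to 2246 CPM in adults and from 727 to 1077 CPM at P42, and adult replicates 2, 6 and 7 held the highest scores for that list.

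In control females 54 genes rose and 47 fell in adults against P42, of 24065 tested (edgeR quasi-likelihood test, Benjamini-Hochberg adjusted p under 0.05). That is 0.42% of the genes tested, 0.224% rising and 0.195% falling. Of these genes 97 were protein coding, and 6 rose and 17 fell by more than 1 on the log2 scale. The median absolute change was 0.57. Among them were the Y-linked Ddx3y, Kdm5d and Eif2s3y, whose P42 mean rests on the library that went against its label, so 98 genes are described from here on. Without both P42 replicate 5 and adult replicate 1 these 3 genes turned, Ddx3y to 1.80 (edgeR adjusted p = 0.699), Kdm5d to 1.11 and Eif2s3y to 0.14. The libraries of the 2 ages did not overlap for 35 of the called genes, and for 0.262% of all genes tested. With any 1 of the 15 libraries left out, 45 of the genes passed every time, of which 21 rose and 24 fell. Single libraries moved the count itself. Leaving out adult replicate 3 gave 60 calls, as did leaving out P42 replicate 3. Omission of P42 replicate 2 gave 65, that of adult replicate 6 gave 171, and that of adult replicate 4 gave 290. Without both P42 replicate 5 and adult replicate 1, 22 genes rose and 31 fell, 0.222% of those tested. In that fit all 98 genes kept their direction and 48 passed. With the 15 female libraries fitted alone, where the spread is estimated from fewer libraries, 18 genes passed, and 15 of the 98 were among them. With the score of motile cilium genes, markers of the ventricle wall, as a covariate 61 genes passed, and 35 of the 98 were among them.

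**Figure D1:**
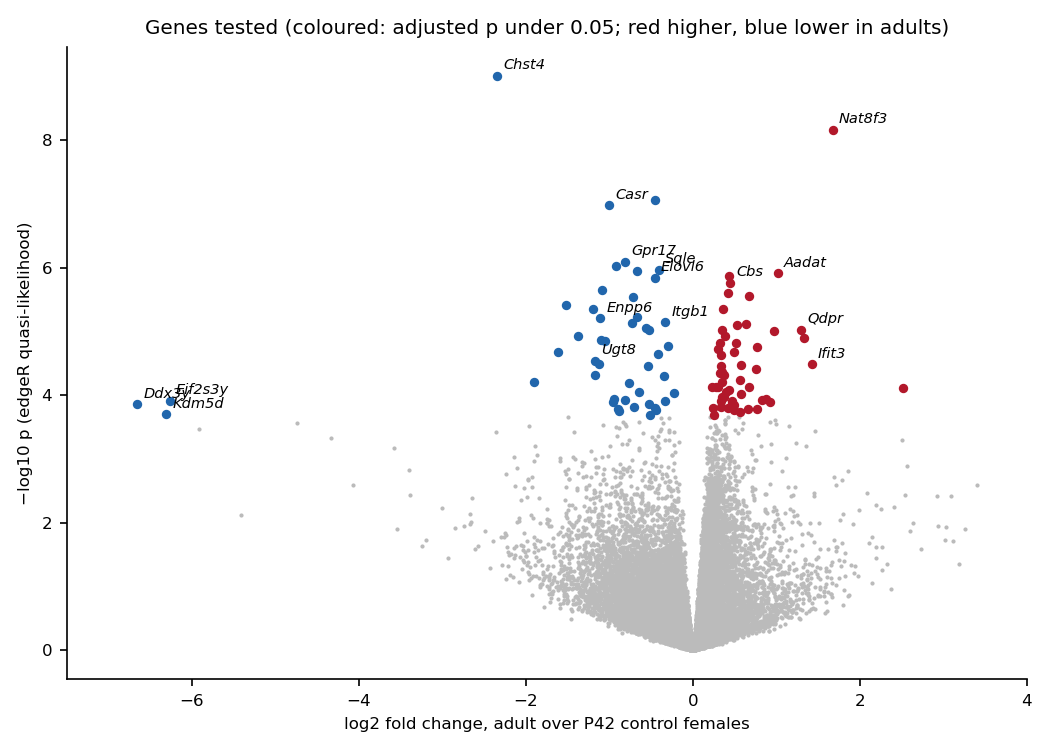
Log2 fold change of each gene tested, adult over P42 control females (x axis), against its −log10 p from edgeR's quasi-likelihood test (y axis). Red points (54) and blue points (47) passed an adjusted p of 0.05, and the 3 blue points at the far left are Y-linked genes.

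Several genes that rose encode enzymes of amino acid and cofactor metabolism. Nat8f3, of the N-acetyltransferase 8 family, lay between 52.5 and 139.5 CPM in adult females (median 85.1), against 20.3 to 42.3 CPM in P42 females (median 25.3). The 2 ages did not overlap, and the change was 1.68 ± 0.21 (log2, SE; edgeR adjusted p = 8.26e-05). Its gene lies on chromosome 4, from 119799258 to 119803476 (GRCr8 coordinates), among neighbouring paralogs, so how the authors' counting split their reads is uncertain. Its paralog Nat8f4 rose too (0.77 ± 0.18, adjusted p = 0.0424), although this call held in only 4 of 15 fits with 1 library left out and was lost with the cilium score as a covariate (adjusted p = 0.302). No other member of the 15-gene N-acetylaspartate and Nat8 list passed, and the list's median change was 0.19, beside 0.00 over all genes tested; with the cilium score as a covariate the list's median was -0.01.

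Aadat, an aminotransferase that makes kynurenic acid from kynurenine and also acts in lysine breakdown, lay between 8.79 and 17.2 CPM in adults (median 12.1), against 4.48 to 7.49 CPM at P42 (median 6.04). Every adult library stood above every P42 library (1.02 ± 0.17, edgeR adjusted p = 0.00316). It was the only one of 10 tested kynurenine pathway genes that passed; Kyat1 and Kyat3, the other aminotransferases of that step, stood at 0.12 and 0.11. Aass, which starts the breakdown of lysine, rose by 0.53 ± 0.10 (adjusted p = 0.00756), with 6.61 to 11.5 CPM in adults (median 9.68) and 6.02 to 7.13 CPM at P42 (median 6.83). Only adult replicate 6 fell within the P42 range. The other 6 genes of the lysine list did not pass and lay between -0.21 and 0.19.

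Cbs, which joins serine and homocysteine into cystathionine, lay between 58.7 and 91.7 CPM in adults (median 73.8), against 45.2 to 57.1 CPM at P42 (median 52.2). The ages did not overlap (0.45 ± 0.08, edgeR adjusted p = 0.00344), and it was the single call among 25 transsulfuration and one-carbon genes (median 0.10). Qdpr reduces dihydrobiopterin back to tetrahydrobiopterin, which monoamine synthesis needs, and lay between 125.9 and 436 CPM in adults (median 169.3), against 64.9 to 141 CPM at P42 (median 68.9). The highest adult value belongs to adult replicate 1 and the highest P42 value to P42 replicate 1, and the ranges overlapped. Qdpr rose by 1.30 ± 0.24 (edgeR adjusted p = 0.00788), and by 1.09 without the 2 doubtful libraries (adjusted p = 0.0338). With the cilium score as a covariate it stood at 0.90 ± 0.24 and did not pass (edgeR adjusted p = 0.111). Of the 8 tetrahydrobiopterin genes it alone passed, while Gch1, the entry enzyme, stood at 0.371 ± 0.206 CPM in adults and 0.291 ± 0.173 CPM at P42.

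**Figure D2:**
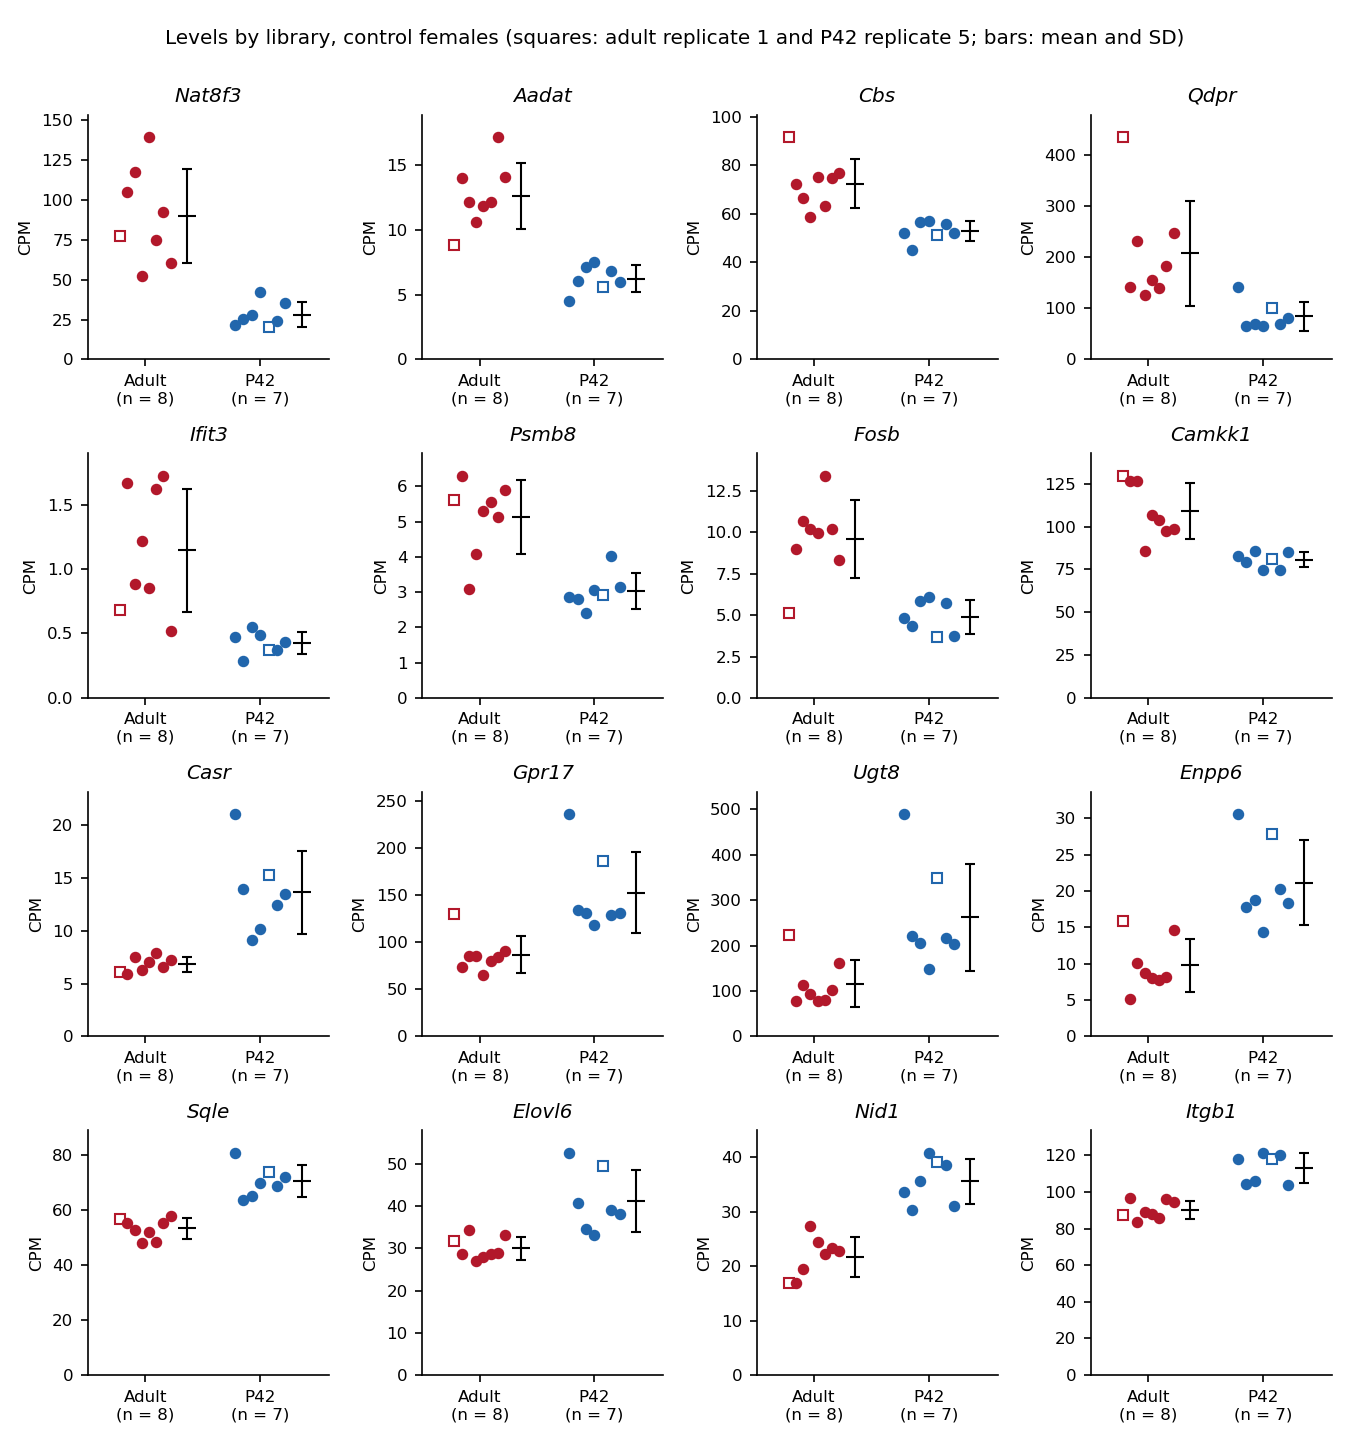
CPM (y axes, from 0) of 16 genes in each control female library, adults left and P42 right; the bar beside each group is the mean and SD. The 8 genes of the upper rows were higher in adults and the 8 of the lower rows lower, and open squares mark adult replicate 1 and P42 replicate 5.

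The other genes named by smallest adjusted p among those that rose serve varied functions. Camkk1, a calcium-dependent kinase that activates other kinases, averaged 109.4 ± 16.4 CPM in adults and 80.7 ± 4.52 CPM at P42 (0.44 ± 0.07, edgeR adjusted p = 0.00316). Fn3k (0.43) repairs glycated proteins, Cbx7 (0.36) is a Polycomb subunit that reads histone methylation, and Cyp4f4 (0.64) hydroxylates fatty acids and eicosanoids. Anxa7 (0.35) binds membranes in response to calcium, Adam15 (0.33) is a membrane metalloprotease, and Tyw5 (0.51) modifies a tRNA base. Fam13c stood at 0.39. Anxa7 and Tyw5 did not overlap between the ages, and each of these 8 genes passed in all 15 fits with 1 library left out. With the cilium score as a covariate Cbx7 and Cyp4f4 passed and the other 6 did not, at adjusted p from 0.055 for Camkk1 to 0.147 for Fam13c (edgeR). Without both doubtful libraries the adjusted p of Adam15 was 0.0504 and that of Aass 0.054.

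A group of the genes that fell marks newly forming oligodendrocytes. Of 18 genes on that list 5 fell and none rose, 17 were lower in adults, and the median change was -0.29, beside 0.00 over all genes. Gpr17, a receptor that precursors carry while they commit to differentiation, lay between 65.01 and 130.5 CPM in adults (median 84.8), against 118 to 236 CPM at P42 (median 131). Only adult replicate 1 reached into the P42 range (-0.81 ± 0.13, edgeR adjusted p = 0.00316). Enpp6, a choline phosphodiesterase of cells that are starting to myelinate, lay between 5.21 and 15.9 CPM in adults (median 8.46), against 14.4 to 30.6 CPM at P42 (median 18.8). It fell by 1.11 ± 0.20 (log2, SE; edgeR adjusted p = 0.00703), with adult replicates 1 and 8 overlapping the lowest P42 library.

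Casr, the calcium-sensing receptor, had a narrow adult range, 5.91 to 7.92 CPM (median 6.77), against 9.14 to 20.99 CPM at P42 (median 13.5). All 8 adults lay below all 7 P42 libraries (-1.0 ± 0.14, edgeR adjusted p = 0.00063). Rnf122, a RING-type ubiquitin ligase, also did not overlap, at 3.4 to 6.38 CPM in adults and 7.05 to 10.2 CPM at P42 (-0.92 ± 0.15). Nfasc, an adhesion molecule of nodes and axon initial segments that oligodendrocytes also make, averaged 354 ± 33.9 CPM in adults and 584 ± 209.5 CPM at P42 (-0.72 ± 0.13). All 5 genes kept their call in every fit with 1 library left out and without both doubtful libraries.

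Among the 23 tested genes of myelin structure and lipids, Ugt8 alone passed. Ugt8 makes galactosylceramide, the first galactolipid of myelin, and lay between 77.3 and 223 CPM in adults (median 97.8), against 149 to 489.7 CPM at P42 (median 216). The change was -1.17 ± 0.24 (edgeR adjusted p = 0.0153), with adult replicates 1 and 8 inside the P42 range. The list as a whole moved with the libraries: 20 of its 23 genes were lower in adults, with a median of -0.55, and none was at 0 in any library. Its summed level ran from 7524 to 21383 CPM in adults and from 9455 to 33976 CPM at P42. P42 replicates 1 and 5 and adult replicate 1 held the 3 highest myelin scores of the 15 libraries. Mbp, a main protein of compact myelin, averaged 4332 ± 1863 CPM in adults and 6369 ± 3306 CPM at P42 and did not pass (adjusted p = 0.363). In bulk tissue, fewer oligodendrocytes and less of an RNA per oligodendrocyte cannot be told apart.

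Genes at several steps of cholesterol synthesis fell. Of 20 genes 6 fell and none rose, 19 were lower in adults, and the median was -0.26. Sqle, which makes squalene epoxide, lay between 48.2 and 58.1 CPM in adults (median 54.1), against 63.9 to 81 CPM at P42 (median 69.98), without overlap (-0.40 ± 0.07, edgeR adjusted p = 0.00316). Upstream of it, Hmgcs1, which makes HMG-CoA, averaged 214 ± 46.3 CPM in adults and 309 ± 45.9 CPM at P42 (-0.53 ± 0.11, adjusted p = 0.0169). Downstream, Lss closes the sterol rings (-0.41 ± 0.08), Cyp51 removes a methyl group from lanosterol (-0.52 ± 0.12), and Dhcr7 makes cholesterol in the last step (-0.52 ± 0.10). Hmgcs1, Lss and Cyp51 did not pass without both doubtful libraries (adjusted p = 0.0835, 0.0811 and 0.116), while Sqle and Dhcr7 did (0.00612 and 0.0342). Lss did not pass with the cilium score as a covariate (edgeR adjusted p = 0.061). Summed, the list ran from 919 to 1449 CPM in adults and from 1324 to 1936 CPM at P42, with the highest P42 scores again in the myelin-rich replicates 1 and 5. Other members lay close to level: Sc5d stood at -0.09, Fdps at -0.10 and Mvk at -0.08, none past the threshold. Of 18 genes for the control of this pathway by SREBP and for sterol transport none passed; Apoe, the main lipid carrier of the brain, stood at 0.43.

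The fatty acid list held 1 call in 22 genes. Elovl6, which extends saturated fatty acids of 16 carbons, lay between 26.9 and 34.2 CPM in adults (median 28.7), against 33.3 to 52.7 CPM at P42 (median 39.05; -0.46 ± 0.08, edgeR adjusted p = 0.00316). Adult replicate 3 alone stood above the lowest P42 library. Acaca (-0.04), which makes malonyl-CoA, and Fasn (-0.16), which builds palmitate, did not pass. Cyp2u1, which hydroxylates long fatty acids, fell (-0.56 ± 0.11).

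Promoters of the cholesterol list were searched because 6 of its members fell. The sterol regulatory element was written as TCACNCCAC and the CCAAT box as CCAAT, each on both strands, in the window from 250 bases before to 50 after the start (RefSeq, GRCr8; the first start listed for a gene). CCAAT was in 12 of the 15 list promoters found there (80%), against 37.7% of all 27457 promoters. Of these 12, the promoters of Hmgcs1 and Lss belong to members that fell. CCAAT was in 13 of 37 promoters found for the genes that fell (35.1%) and in 17 of 45 for those that rose (37.8%). TCACNCCAC was in none of the 15 and in 1.13% of all. The promoter of Hmgcs1 (chr2:53382104-53382323, plus strand, from 200 bases before the start to 20 after) is shown with its CCAAT boxes, which lie on the minus strand, in capitals.
Hmgcs1: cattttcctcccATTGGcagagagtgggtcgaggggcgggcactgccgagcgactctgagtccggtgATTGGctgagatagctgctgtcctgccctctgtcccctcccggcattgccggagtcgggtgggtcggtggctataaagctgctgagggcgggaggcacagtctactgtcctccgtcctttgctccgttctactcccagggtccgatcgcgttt

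Genes of matrix and adhesion fell as well. Of 20 perineuronal net and brain matrix genes, Vcan, Adam19 and Adamts4 fell, none rose, and the median was -0.15. Vcan, the large proteoglycan versican, averaged 46.2 ± 4.73 CPM in adults and 62.8 ± 5.85 CPM at P42, without overlap (-0.44 ± 0.10, edgeR adjusted p = 0.0424), but passed in only 3 of 15 fits with 1 library left out. Adamts4, a protease of such proteoglycans that oligodendrocytes also make, stood at -1.12 ± 0.23, and the sheddase Adam19 at -0.66 ± 0.12. Acan, the aggrecan core protein of the nets, was near level (-0.21). Nid1, which links laminin to collagen IV in basement membranes, lay between 16.9 and 27.4 CPM in adults (median 22.5), against 30.2 to 40.8 CPM at P42 (median 35.6), without overlap (-0.72 ± 0.13, adjusted p = 0.0044). It was the single call among 22 basement membrane and collagen genes. Itgb1, the beta subunit of many integrins, was tight within each age, at 83.7 to 96.7 CPM in adults and 103.7 to 122 CPM at P42, and fell by a small amount (-0.33 ± 0.06, adjusted p = 0.00756). In the fit with the cilium score none of Vcan, Nid1 and Itgb1 passed: Vcan stood at -0.37 (edgeR adjusted p = 0.249), Nid1 at -0.55 ± 0.13 (adjusted p = 0.055) and Itgb1 at -0.27 (adjusted p = 0.0835).

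Mkrn3, an imprinted gene whose human counterpart restrains the onset of puberty, lay between 0.832 and 1.53 CPM in adults (median 1.13), against 1.89 to 3.19 CPM at P42 (median 2.38). The ages did not overlap (-1.09 ± 0.19, edgeR adjusted p = 0.00418), and none of the 19 other imprinted genes tested passed. No gene of the imprinted list, Mkrn3 included, passed in control males or in exposed females. Rab7b, a GTPase of late endosomes, fell by 0.67 ± 0.11 without overlap, at 7.17 ± 0.923 CPM in adults and 11.4 ± 1.6 CPM at P42. The smallest adjusted p of the comparison, 2.36e-05, belonged to Chst4, a sulfotransferase of low level whose mean fell under 1 CPM and which was named after its value was seen. Chst4 lay between 0.148 and 0.412 CPM in adults (median 0.227), against 0.621 to 1.78 CPM at P42 (median 1.25), a change of -2.35 ± 0.27.

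Few genes of the interferon response rose. Of 28 genes 2 passed, Ifit3 and Samd9l2, with a list median of 0.22. Ifit3, which blocks the translation of foreign RNA together with its family, lay between 0.518 and 1.73 CPM in adults (median 1.05), against 0.286 to 0.549 CPM at P42 (median 0.436; 1.42 ± 0.29, edgeR adjusted p = 0.0165). Adult replicates 2, 6 and 7, the libraries rich in cortical markers, held its 3 highest values, and with the cortical score as a covariate it stood at 1.25 (adjusted p = 0.0196). Samd9l2, whose human relative SAMD9L is interferon-inducible, rose without overlap to 4.22 ± 0.436 CPM in adults, against 2.64 ± 0.495 CPM at P42 (0.68 ± 0.12); neighbouring copies of this family make its counts uncertain. Isg15 (0.46), Mx1 (0.34) and Rsad2 (0.00), common interferon targets, did not pass. Psmb8, a catalytic subunit of the immunoproteasome, rose by 0.76 ± 0.16 (adjusted p = 0.0184), with 3.09 to 6.3 CPM in adults (median 5.42) and 2.4 to 4.03 CPM at P42 (median 2.92). It was the single call of 15 class I antigen processing genes and was lost without both doubtful libraries (adjusted p = 0.0835). Once the cilium score was a covariate, neither Ifit3 (1.24, edgeR adjusted p = 0.118) nor Psmb8 (adjusted p = 0.0802) passed. In that fit 27 of the 28 interferon genes were higher (median 0.48) and 2 passed. Of the 15 antigen processing genes 13 were higher there (median 0.40) and 0 passed. In control males 27 of 28 interferon genes (median 0.52, 2 past the threshold) and 15 of 15 antigen processing genes (median 0.39, 5 past it) were higher. In exposed females 26 of 28 (median 0.49, 0 past it) and 15 of 15 (median 0.32, 3 past it) were higher. Microglial markers stood beside these: all 20 were higher in adults, none passed, the median was 0.21, none was at 0 in any library, and their sum ran from 451 to 1118 CPM in adults and from 359 to 671 CPM at P42. Without both doubtful libraries 17 of the 20 were higher (median 0.13), and with the cilium score as a covariate 8 were higher and 12 lower (median -0.01). The part of the microglial markers in these results was not tested.

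The promoters of Ifit3 and Psmb8 are shown because both hold the interferon-stimulated response element core, taken as GAAA repeated after any 2 bases and searched on both strands. This core was in 13 of 21 interferon list promoters (61.9%) and in 8 of 13 of the antigen processing list (61.5%), against 3.77% of all. It was in 4 of the 45 promoters found for the genes that rose and in 3 of 37 for those that fell. Each is printed from 200 bases before the start to 20 after, with the core, which lies on the minus strand of the promoter, in capitals; it begins at position -44 in Ifit3 (chr1:241527126-241527345, plus strand) and at -4 in Psmb8 (chr20:4657012-4657231, minus strand).
Ifit3: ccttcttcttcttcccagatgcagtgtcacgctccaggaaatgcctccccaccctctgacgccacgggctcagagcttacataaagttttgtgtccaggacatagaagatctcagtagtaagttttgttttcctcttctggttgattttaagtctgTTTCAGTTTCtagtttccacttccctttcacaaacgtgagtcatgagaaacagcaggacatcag
Psmb8: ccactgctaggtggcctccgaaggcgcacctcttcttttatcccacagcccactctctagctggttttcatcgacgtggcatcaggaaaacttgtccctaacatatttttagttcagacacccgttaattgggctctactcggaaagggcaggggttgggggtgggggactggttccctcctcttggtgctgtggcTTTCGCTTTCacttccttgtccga

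Activity-induced and glucocorticoid-induced genes were higher in part. Fosb, an immediate early transcription factor whose stable splice form builds up in this nucleus with repeated stimulation, lay between 5.12 and 13.4 CPM in adults (median 10.1), against 3.69 to 6.11 CPM at P42 (median 4.83). Adult replicate 1 alone overlapped P42 (0.97 ± 0.18, edgeR adjusted p = 0.00788). It was the only call of 27 immediate early genes, of which 24 were higher (median 0.32). Fos (0.87, adjusted p = 0.152) and Junb (0.59) did not pass. Of 18 glucocorticoid-induced genes Sgk1 and Sult1a1 rose. Sgk1, a kinase, lay between 41.7 and 146 CPM in adults (median 65.2), against 36.2 to 49.4 CPM at P42 (median 41.9; 0.92 ± 0.21, adjusted p = 0.0378). Adult replicates 3, 5 and 8 held the 3 highest values. Sgk1 passed in 5 of 15 fits with 1 library left out and Sult1a1, a sulfotransferase (0.88 ± 0.20), in 6, and neither passed without both doubtful libraries or with the cilium score as a covariate (edgeR adjusted p = 0.177 for Sgk1 and 0.0819 for Sult1a1 there).

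Marker and receptor lists of accumbens neurons gave no call. None of 25 medium spiny neuron genes passed (median -0.08), with the dopamine receptors Drd1 at -0.09 ± 0.19 and Drd2 at -0.08 ± 0.20, and the opioid precursors Penk at 0.03 ± 0.16 and Pdyn at 0.20 ± 0.13. Their adjusted p (edgeR) ran from 0.452 to 0.946, which does not show that they were equal. The mu opioid receptor Oprm1 stood at -0.04 ± 0.19 and the estrogen receptor Esr1 at 0.60 ± 0.38. No gene passed among 14 GABA-A receptor subunits (median 0.12), nor among 25 glutamate receptor genes, led by Grm7 (0.23 ± 0.07).

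Proliferation genes were lower as a group without a single call. All 28 were lower in adults, with a median of -0.87, beside 0.00 over all genes. Rrm2, which supplies deoxynucleotides for DNA synthesis, lay between 2.15 and 6.4 CPM in adults (median 3.58), against 2.68 to 16.3 CPM at P42 (median 7.25; -1.02 ± 0.28, edgeR adjusted p = 0.0964). Kif11, a motor of the mitotic spindle, stood at -1.32 ± 0.37. Outside this list, the centromere motor Cenpe (-0.77) and the condensin subunit Smc4 (-0.52), named after their values were seen, were among the genes that fell. Summed proliferation genes ran from 139 to 312 CPM in adults and from 172.4 to 584.0 CPM at P42, highest in P42 replicates 4 and 6. Motile cilium genes, which mark the ependyma of the neighbouring ventricle wall, were also lower in all 20 cases (median -0.85), with a sum of 137 to 1027 CPM in adults and 515 to 1181 CPM at P42; 2 members were at 0 in some library. With the cilium score as a covariate 27 of the 28 proliferation genes were lower but by less, at a median of -0.39, and none passed. There 0 of 28 lay at an unadjusted p under 0.05, beside 23 of 28 without the covariate. Cenpe (edgeR adjusted p = 0.242) and Smc4 (adjusted p = 0.405) lost their calls there. The red blood cell genes were lower in 6 of 6 (median -1.43), at low levels. Their sum ran from 1.31 to 7.94 CPM in adults and from 2.05 to 14.99 CPM at P42, and 3 were at 0 in some library. In control males 6 of 6 were lower too (median -1.44), whereas in exposed females 5 of 6 were higher (median 0.56). The 23 tested ribosomal protein genes were higher in 23 (median 0.25). In control females no gene of either list passed the threshold. Under the cilium covariate 17 of the 23 ribosomal protein genes were higher (median 0.04). In control males all 23 were higher (median 0.48) and 17 passed. In exposed females all 23 were higher as well (median 0.43) and 18 passed. None passed among 18 astrocyte genes, of which 14 were higher (median 0.25), among 25 nuclear genes of oxidative phosphorylation, all higher (median 0.17), or among 19 circadian clock genes (median 0.12). Choroid plexus markers had a median of -0.60 and neuroblast markers one of -0.38, also without a call. Under the cilium covariate the oxidative phosphorylation genes were higher in 6 and lower in 19 (median -0.06), and the medians were 0.38 for choroid plexus and -0.06 for neuroblast markers.

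**Figure D3:**
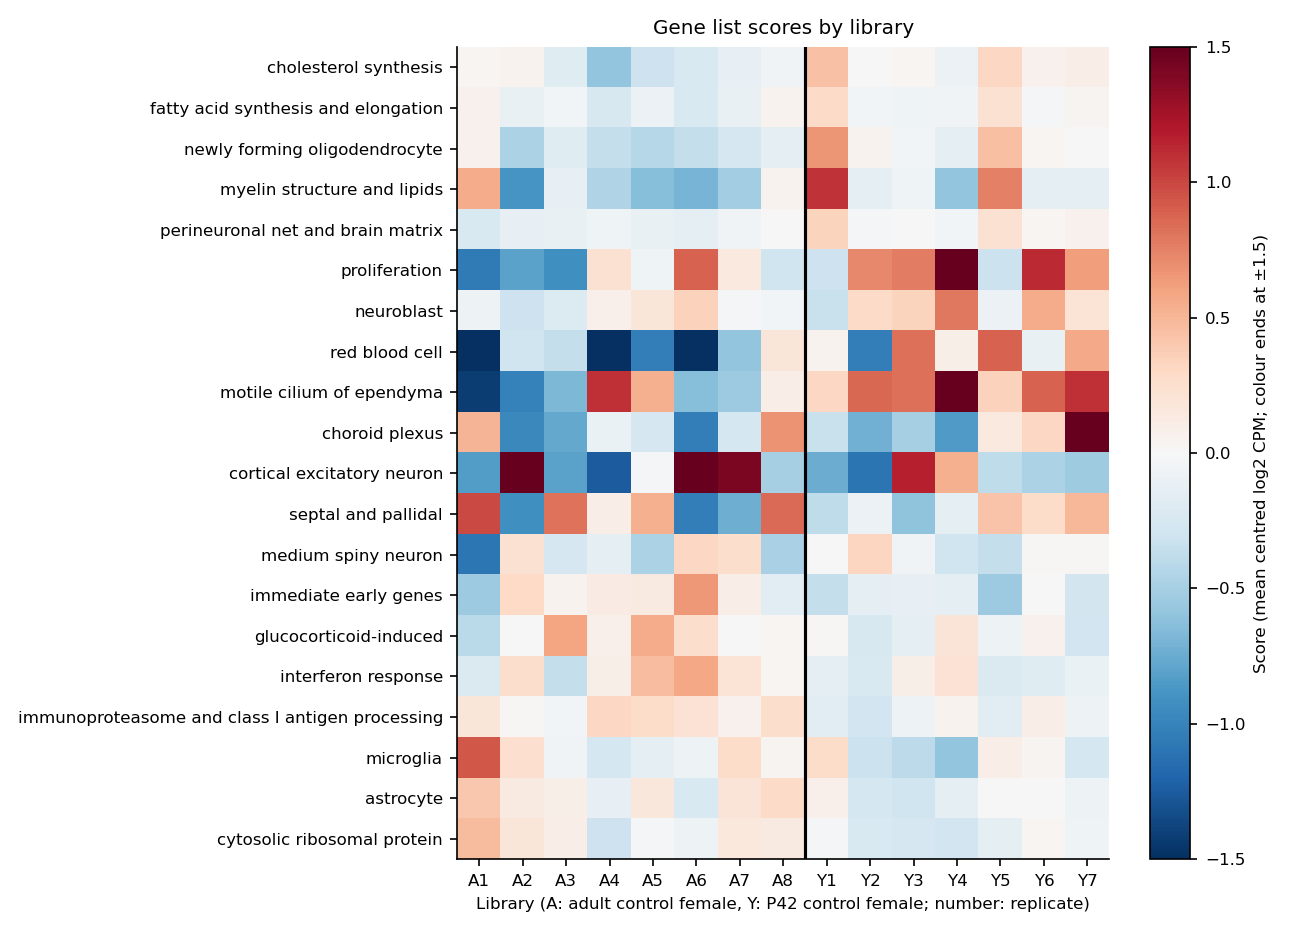
Scores of 20 gene lists (rows) in the 8 adult (A1 to A8) and 7 P42 (Y1 to Y7) control female libraries; a score averages over the list each gene's log2 CPM less that gene's mean in all 54 libraries, with colour ending at ±1.5. Y1 and Y5 are the myelin-rich P42 libraries, and A2, A6 and A7 those rich in cortical markers.

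Because the myelin score varied widely among libraries of each age, the comparison was also fitted with that score (22 myelin genes, Ugt8 left out) as a covariate, an alternative chosen after the data were seen. It gave 1103 genes that rose and 557 that fell, 6.9% of the genes tested, and all 98 genes kept their call and direction. Without the 2 doubtful libraries the same fit gave 232 and 154 genes, or 1.62%, and 373 of the 1660 genes were called there too. With all 15 libraries and the covariate, Qdpr stood at 1.62 ± 0.11 (edgeR adjusted p = 3.16e-10), Ugt8 at -0.75 ± 0.06 and Gpr17 at -0.59 ± 0.07. Genes that the plain comparison did not call included Ndrg1 (0.68 ± 0.06), which is needed to maintain myelin sheaths, Pip4k2a (0.39 ± 0.04), a lipid kinase, Csrp1 (0.61 ± 0.07), a LIM-domain protein, and the small heat shock protein Cryab (1.25 ± 0.15). On the lower side, Fa2h, which hydroxylates the fatty acids of myelin galactolipids, stood at -0.44 ± 0.05. Cldn11, a tight junction protein of myelin, stood at -0.33 ± 0.04. Both belong to the 22 genes of the score, so these changes are relative to a mean that holds them. Of the 23 tested genes of the myelin list, Ugt8 included, 4 rose and 9 fell in this fit. Of the proliferation genes 21 of 28 fell with the covariate, Mki67, a marker of dividing cells, by 1.65 ± 0.27, and 19 of 28 without the 2 doubtful libraries. With the cilium score in place of the myelin score none of the 28 passed, and Mki67 stood at -0.55 ± 0.39 (edgeR adjusted p = 0.818). In exposed females with the myelin covariate none of the 28 passed, with 25 lower and 3 higher (median -0.19). There 0 of the 28 lay at an unadjusted p under 0.05. Control males, without a covariate, also gave no call on this list, with 22 lower and 6 higher (median -0.32). The 386 genes called without the 2 doubtful libraries were read in exposed females, in other libraries, with the myelin covariate. There 371 of the 386 had the same sign and 120 passed in the same direction. Of all 24337 genes tested in that fit 680 passed, and the share of all genes with the same sign is not given here.

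The same genes were read in control males, whose libraries are separate. Age gave 610 calls in males, 2.53% of the genes tested, and 322 without the 2 control libraries, 1 of each sex, whose sex markers went against their labels. In males 93 of the 98 kept the female direction, as did 61.8% of all genes tested, and 38 passed, 20 that rose and 18 that fell. Aadat changed by 1.02 ± 0.17 in females and 1.64 ± 0.17 in males, and Qdpr by 1.30 ± 0.24 in females and 1.65 ± 0.24 in males. Cbs changed by 0.45 ± 0.08 in females and 0.51 ± 0.08 in males, and Nat8f3 by 1.68 ± 0.21 in females and 1.07 ± 0.20 in males. Camkk1 (0.09), Ifit3 (0.05), Itgb1 (-0.09) and Enpp6 (-0.69) did not pass in males. The difference between the sexes was tested itself. The age change in females minus that in males passed for 0 of 24065 genes (0%) with edgeR, DESeq2 and voom. With 6 to 9 libraries per group, this does not show that the change was the same in both sexes. For this difference 2045 genes lay at an unadjusted edgeR p under 0.05, beside 3679 for the age change in females. Genes with the smallest p there were Ptprm (0.39 ± 0.09), Lamb1 (0.49 ± 0.12) and Rptor (0.25 ± 0.06) above 0, and Aif1l (-0.75 ± 0.19), Krt18 (-1.94 ± 0.49) and Tgfbi (-1.22 ± 0.31) below 0, genes known only by a locus identifier left out; none passed. The motile cilium list had a median of -0.85 in females and 0.54 in males, and no member passed as a difference.

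In ethanol-exposed females, adult PAE_AAE over P42 PAE_VEH gave 529 calls, 2.17% of the genes tested. Of the 98 genes 96 had the same sign there, where 66.6% of all genes did, and 22 passed. The call count in these 9 libraries depended on single ones. It was 74 without PAE_VEH replicate 1, and 178 and 246 without PAE_VEH replicates 2 and 4. It was 173, 349 and 181 without PAE_AAE replicates 1, 2 and 5. Qdpr averaged 196 ± 36.5 CPM in adult PAE_AAE and 77.5 ± 9.84 CPM in P42 PAE_VEH females (SD, n = 5 and n = 4), a change of 1.34 ± 0.18. Cbs averaged 82.9 ± 6.78 CPM in adult PAE_AAE and 59.1 ± 4.17 CPM in P42 PAE_VEH females (0.49 ± 0.08). Gpr17 averaged 83.2 ± 9.43 CPM in adult PAE_AAE and 134 ± 16.4 CPM in P42 PAE_VEH females (-0.68 ± 0.15). Nat8f3 (1.14 ± 0.29), Casr (-0.79 ± 0.19), Enpp6 (-1.19 ± 0.28) and Ugt8 (-0.75 ± 0.19) passed as well, whereas Sqle (-0.31, adjusted p = 0.212), Nid1 (-0.63) and Ifit3 (1.08) did not. In males and exposed females together, 15 of the 98 genes passed in both with the female direction, among them Nat8f3, Cbs, Qdpr, Aass, Psmb8, Sult1a1, Selenbp1, Adhfe1, Prex2 and Spire1 of those that rose, and Gpr17, Casr and Rab7b of those that fell. Selenbp1, Adhfe1, Prex2 and Spire1 were named after their values were seen.

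**Figure D4:**
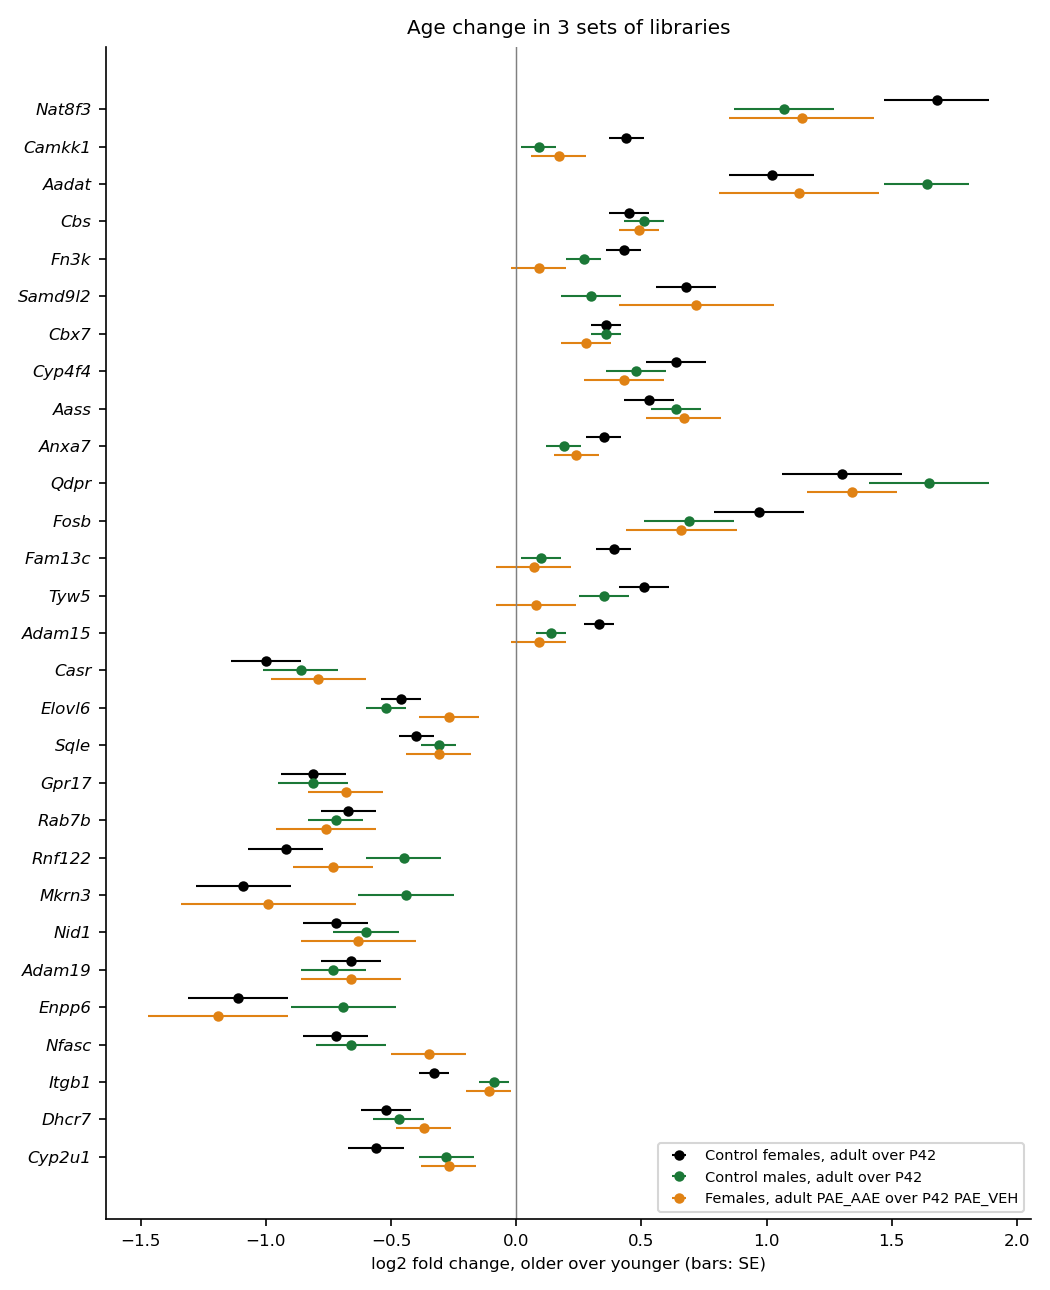
Log2 fold change, older over younger, with its SE (x axis) of 29 genes named by smallest adjusted p in control females (black), beside control males (green) and exposed females (orange). The black points carry the choice of the genes, and the green and orange points come from other libraries.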

How the data were processed

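Counts per gene were deposited by the authors, unnormalised, for 54 libraries that were not strand-specific, per the labels' protocols; the submitters' processing notes name fastp and HISAT2 2.0.5. The read counter and its annotation are not stated. Depth was 59.1 to 103.8 M counts per library. Of 46505 rows, 720 have no gene name.

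Genes were tested with edgeR 4.0.16 (R 4.3.3; TMM, filterByExpr, quasi-likelihood, Benjamini-Hochberg adjusted p under 0.05) over all 30 control libraries with 4 group means; exposed libraries were fitted alike. DESeq2 1.42.0 and voom (limma 3.58.1) were alternatives. The test was tried on simulated counts, with the same spread for every gene and without outlying libraries or differences in tissue make-up. It recovered 64 of 100 genes changed by 1 on the log2 scale and 100 of 100 changed by 2, with 4 false calls. Changes smaller than 1 were not simulated.

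Named are the 15 genes per direction with the smallest adjusted p, a symbol and a mean of at least 1 CPM, and up to 4 called members, or 2 by smallest p where none passed, of each list. Some genes this rule names are not reported here, and other list members given beside these were chosen after their values were seen. The comparison, its libraries and the lists were chosen with earlier results of these data known. Replicates were numbered in accession order.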

Additional observations from a re-analysis of the deposited data

Results flagged for a closer look

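Among 100 groups of libraries tested (named genes, in adults and in P42 females), 9 held a library far from the others, where chance flags about 1 in 20. In adult replicate 1, Qdpr stood at 435.8 CPM, with the next adult at 247.9 CPM, and Gpr17 at 130.5 CPM, with the next adult at 90.47 CPM. In P42 replicate 5 the Y-linked genes were high and Xist low. Ddx3y stood there at 105.9 CPM (next P42 library 0.1556), Kdm5d at 43.97 CPM (next 0.1026), Eif2s3y at 51.68 CPM (next 0.1712) and Xist at 0.7612 CPM, where the next lowest P42 library had 649.6 CPM. In adult replicate 8 the same 3 Y-linked genes were above the other adults at low levels: Ddx3y 0.7179 CPM (next 0.1794), Kdm5d 0.5318 CPM (next 0.05468) and Eif2s3y 0.5451 CPM (next 0.1059).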

How the results depend on the processing

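Of the 89 named genes, sex-linked genes left out, 11 changed sign in at least 1 alternative fit, 9 of them with the motile cilium score; none of the 11 was past the threshold in the plain fit or where it changed sign. Of these results 2313 stayed on the same side of the threshold, 131 were lost and 48 gained. The female count (54 rose, 47 fell) was 349 with DESeq2, 249 with voom, 178 with all 54 libraries in 1 fit, 60 with no filter on low counts, 18 with female libraries alone and 53 without both doubtful libraries. As alternatives, of which those with the myelin and cortical scores were chosen after seeing the data, it was 61 with the motile cilium score, 114 with the cortical score, 1660 with the myelin score and 386 with the myelin score and both libraries left out. Leaving out 1 library gave 60 to 290. Males gave 1166 calls with DESeq2, 402 with voom, 360 with no filter and 322 without the libraries against their labels, beside 610. Exposed females gave 1192 with DESeq2, 1797 with voom and 309 with no filter, beside 529, and 74 to 469 with 1 library left out. The female minus male count was 0 in all 7 fits. The causes of these shifts were not tested. No paired analysis was possible because the labels carry no replicate numbers and name no litter. Whether libraries share a litter is not known, and the tests treat them as independent. Beyond depth, the spread between libraries, a biological coefficient of variation of 35.4%, limits which small changes can be called.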
